A study of Homo sapiens with 24 samples.

Results

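Resveratrol, a stilbene polyphenol from grape skin, was tested here in cells that all received EGCG, the main catechin of green tea. The comparison set 6 libraries of cells given both compounds (combination) against 6 libraries of cells given EGCG alone, 12 of the 24 libraries of the series. Every library came from 686Tu (MDA686TU), an established cell line from a human squamous cell carcinoma of the head and neck, harvested after 24 h. All cells of both groups received 40 µM EGCG, and the combination cells also received 15 µM resveratrol. Of the other libraries, 6 came from control cells and 6 from cells given 15 µM resveratrol alone, and they were used to set the change beside EGCG against the change without it. The resveratrol stock was made in DMSO and EGCG in water, and the sources used here do not say whether EGCG-only cells received DMSO, so resveratrol and its solvent cannot be told apart. The study used 1 malignant cell line for the sequencing, so nothing here speaks of normal or premalignant oral cells.

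Resveratrol is known as a ligand of the aryl hydrocarbon receptor (AhR), a transcription factor that drives the CYP1 enzymes, and both compounds are known as redox-active polyphenols. NRF2, which KEAP1 holds back in unstressed cells, switches on glutathione, thioredoxin and NADPH genes when thiols are oxidised or modified. ATF4 does the same for amino acid and stress genes when translation initiation is curbed, and p53 and the p21 protein that CDKN1A encodes hold back the cell cycle. The gene lists below follow these pathways and the programs of a squamous epithelial cell, and each list was tested only as single genes within the fit over all genes.

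Library totals ran from 7034872 to 11735574 counts in EGCG libraries and from 7466693 to 9597421 in combination libraries (exact permutation test of totals, two-sided p = 0.314). Replicates 1 to 3 differed from replicates 4 to 6 in every group, most plainly in the share of counts from mitochondrial genes, which was 0.251 to 0.326% in the first set and 0.448 to 0.728% in the second over the 12 libraries. Neither the labels nor the methods name a batch, so this split is called a replicate set, and it was a term of the fit. The first principal component held 47.1% of the variance and separated the groups, and combination replicate 3 lay farthest out on the second (8.37% of the variance). The biological coefficient of variation was 4.06%, and nothing in the labels says that replicates were separate cultures, so p-values measure the spread between these libraries, which may be technical. Squamous markers were abundant in deposited FPKM, with KRT5 at a mean of 1245 in EGCG and 985 in the combination. All 10 leukocyte markers failed the low-count filter, none of them above 11 counts in any library, and of 6 endothelial markers only VWF passed it, at up to 19 counts. Of 8 fibroblast markers COL1A1 and COL1A2 passed it, while DCN and PDGFRA never exceeded 1 count in a library.

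Adding resveratrol to EGCG moved most of the measured transcriptome by small amounts. Counts were given for 60617 genes, of which 15476 passed the low-count filter, and 9102 of these (58.8%) were differentially expressed genes (DEGs), meaning an adjusted p under 0.1 and a p under 0.05 in the edgeR quasi-likelihood test. Upregulated DEGs numbered 4518 (29.2%) and downregulated DEGs 4584 (29.6%), and the median log2 fold change over all tested genes was -0.00. The median absolute log2 fold change of a DEG was 0.31, and for 76.7% of DEGs it stayed under 0.5. Larger changes leaned upward, since 1093 genes rose by at least 1.5-fold (7.06%) and 458 fell by as much (2.96%). At 2-fold there were 362 (2.34%), of which 285 rose (1.84% of tested genes) and 77 fell (0.498%). The 6 combination libraries did not overlap the 6 EGCG libraries for 4250 genes (27.5%), with 2077 higher (13.4%) and 2173 lower (14.0%).

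The even split between rises and falls rests on the scaling between libraries. The trimmed-mean scaling factors were 0.959 to 0.987 in EGCG libraries and 1.022 to 1.034 in combination libraries. Scaled by library size alone, the same libraries gave 5830 upregulated and 3315 downregulated DEGs, and the median of all genes moved to 0.07. Directions of gene groups given below are under the trimmed-mean scaling, and those that turn with library size alone are named where they occur. Without combination replicate 3 the count was 8923 DEGs. Within replicates 1 to 3 it was 7153 and within replicates 4 to 6 it was 7486, and 9075 of the 9102 DEGs had the same direction in both sets.

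**Figure D1:**
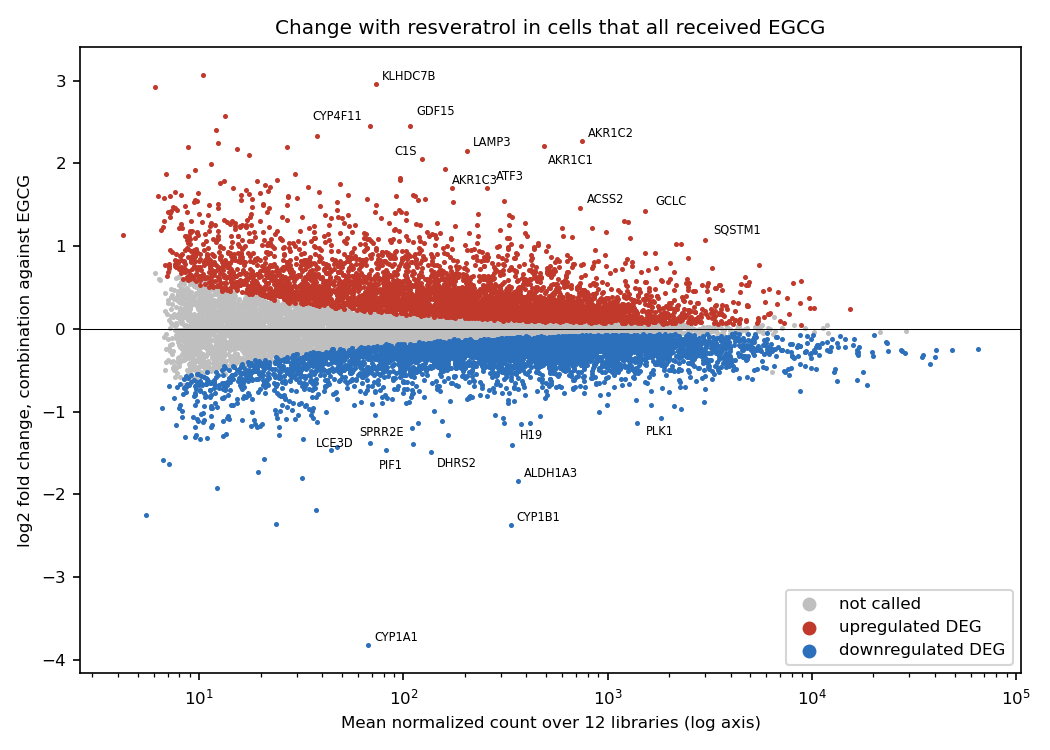
Log2 fold change of combination against EGCG (vertical axis) by mean normalized count over the 12 libraries (horizontal log axis), with upregulated DEGs in red, downregulated DEGs in blue and other genes in grey. The band is centred near 0, and CYP1A1 at -3.82 and KLHDC7B at 2.96 lie farthest out among the genes named.

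The rises by rule were the 15 largest among DEGs with separate libraries and a mean normalized count of at least 50. Separate libraries were thus a condition for naming these genes and the 15 falls, also where they are described below. Coordinates are gene spans on GRCh38 from the GENCODE annotation. KLHDC7B (chr22:50545899-50551023) led them, from 14.7–18.7 (median 15.8) in EGCG libraries to 101–166 (median 131) in combination libraries, a log2 fold change of 2.96 ± 0.13 (SE, n = 6 per group; adjusted p = 3.2e-22). GDF15, CYP4F11, AKR1C2, AKR1C1 and LAMP3 followed with 2.45, 2.45, 2.27, 2.21 and 2.15 on the log2 scale. C1S, AKR1C3, LURAP1L, OAS1, NMRAL2P, ATF3, IRF7, PLEKHA6 and ANKRD1 lay between 1.61 and 2.05. Among them were 3 aldo-keto reductases, the interferon-response genes OAS1 and IRF7 and the stress genes GDF15 and ATF3, which are taken up with their lists below.

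The falls by rule were headed by CYP1A1, CYP1B1 and ALDH1A3, all enzymes of xenobiotic or retinoid oxidation. DHRS2, a short-chain dehydrogenase, measured 196–213 (median 199) with EGCG and 64.2–86.8 (median 69.9) with the combination (log2 fold change -1.49 ± 0.073). PIF1, a DNA helicase, fell by 1.47 and H19, an imprinted long non-coding RNA, fell by 1.41 on the log2 scale. The epidermal differentiation genes SPRR2E, LCE3D, SBSN and SPRR3 fell by 1.39, 1.38, 1.20 and 1.14. STAG1, a cohesin subunit, dropped from 488–575 (median 506) to 189–264 (median 239), and GAL, which encodes the neuropeptide galanin, from 482–636 (median 582) to 239–297 (median 253). ALPP, placental alkaline phosphatase, fell by 1.28, and its reads are hard to separate from those of near-identical paralogs. The mitotic genes PSRC1 and PLK1 each fell by 1.14. All 15 had separate libraries, as the rule required.

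CYP1 enzymes fell furthest of all named genes while the receptor that drives them rose. CYP1A1 (chr15:74719542-74725536), which oxidises polycyclic hydrocarbons, measured 104–143 (median 127) normalized counts in EGCG libraries and 3.38–11.4 (median 9.46) in combination libraries. CYP1B1 (chr2:38066973-38109902), its relative, went from 499–631 (median 547) to 92.8–115 (median 113). Neither gene's libraries overlapped, and the log2 fold changes were -3.82 ± 0.15 (adjusted p = 2.74e-24) and -2.37 ± 0.064 (adjusted p = 9.67e-30). TIPARP, another AhR target and a feedback inhibitor of the receptor, fell by 0.23. AHR itself rose by 0.62 ± 0.055, from a median of 408 to 640 normalized counts, and its partner ARNT by 0.16. ALDH3A1 was not called at 0.04 ± 0.075. So 2 of 6 tested members of the list rose and 3 fell, against 29.2% and 29.6% of all genes. The 2 rises were the regulators AHR and ARNT, and no tested target of the receptor on the list rose. The letters TNGCGTG, the core that AhR and ARNT bind, were found on either strand of the 250 bases before the RefSeq gene start in 0 of 4 members with a promoter sequence and in 6.03% of tested genes, which says only that these letters are not in those windows.

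ALDH1A3 (chr15:100877714-100916626), which makes retinoic acid from retinaldehyde, was the next of these losses. It measured 546–597 (median 568) with EGCG alone and 142–176 (median 159.6) with the combination (log2 fold change -1.84 ± 0.054, adjusted p = 1.42e-28). The other retinoid genes moved less and in both directions. Of the whole list, ALDH1A3 included, 4 of 11 tested rose and 4 fell, against 29.2% and 29.6% of all genes. The median was 0.04. With library size alone there were 5 rises and 4 falls. ALDH1A1, another retinaldehyde dehydrogenase, and CYP26B1, which degrades retinoic acid, fell by 0.49 and 0.30. DHRS3, which turns retinaldehyde back into retinol, rose by 0.34, and the carrier CRABP2 by 0.51.

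Genes of polyphenol conjugation and export did not move as a group. Of 17 listed genes 9 were tested, 3 rose and 1 fell, against 29.2% and 29.6% of all genes. The median was -0.02, turning to 0.06 with library size alone. SULT1E1, a sulfotransferase of estrogens and phenols, was the exception in size, from 6.43–15.7 (median 8.65) to 41.1–53 (median 44.1) (log2 fold change 2.20 ± 0.19, adjusted p = 5.43e-13). A gene this low with EGCG may have passed the filter only through libraries with resveratrol, so its rise counts for little. With at least 10 counts required in every library, 6 members were tested, of which 2 rose and 1 fell. Among efflux pumps ABCC4 fell by 0.68 and ABCC5 rose by 0.41, whereas ABCC1 (-0.02) and ABCG2 (-0.23) were not called.

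NRF2 targets rose broadly, 24 of 29 tested genes against 29.2% of all genes, with 2 falls and a median log2 fold change of 0.56. GCLC (chr6:53497341-53616970), the catalytic subunit that limits glutathione synthesis, had the smallest p of the whole comparison. It measured 779.9–889.9 (median 824) normalized counts with EGCG and 2153–2284 (median 2216) with the combination. The groups lay far apart, and the log2 fold change was 1.42 ± 0.032 (adjusted p = 1.87e-32). Its modifier subunit GCLM rose by 0.77, the cystine carrier SLC7A11 by 0.46 and glutathione reductase (GSR) by 0.46. GPX2, a glutathione peroxidase of epithelia, rose by 1.12 and OSGIN1 by 1.37.

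The aldo-keto reductases AKR1C1, AKR1C2 and AKR1C3 on chromosome 10, which reduce steroids and reactive carbonyls, were among the largest changes. AKR1C2 went from 226–286 (median 264) to 1049–1456 (median 1241) and AKR1C1 from 132–208 (median 181) to 689–911 (median 814). AKR1C3 went from 47.5–84 (median 67.9) to 199.8–307 (median 260.3). No combination library of any of the 3 genes reached down to an EGCG library. Because these genes are nearly identical in sequence, the counts of the 4 AKR1C genes were also summed, giving 497 ± 59.2 (SD) with EGCG and 2311 ± 299 with the combination, a log2 ratio of 2.22.

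Genes that supply or use NADPH moved unequally. TXNRD1 (chr12:104215779-104350307), thioredoxin reductase, rose from 3954–4226 (median 4090.4) to 6693–7245 (median 6946) (log2 fold change 0.77 ± 0.024, adjusted p = 1.22e-27). NQO1, a quinone reductase, rose from 2003–2203 (median 2077) to 2731–3108 (median 2842), by 0.46. Of the pentose phosphate enzymes PGD rose by 0.60, while TALDO1 was not called at 0.03 and TKT fell by 0.06. HMOX1, heme oxygenase, was low, from 18–35.2 (median 27.7) to 35.7–53.1 (median 48.5), and rose by 0.78 ± 0.15. EPHX1, an epoxide hydrolase, rose by 1.28 and the exporter ABCC3 by 0.82, and the ferritin genes FTL and FTH1 rose by 0.57 and 0.37. TXN, the substrate of TXNRD1, fell by 0.18, and PRDX1 (-0.00) and SRXN1 (0.20) were not called. Transcripts of the regulators changed little, with NFE2L2, which encodes NRF2, up by 0.07 and KEAP1 up by 0.25.

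The letters TGACNNNGC, the core of the antioxidant response element that NRF2 binds with small MAF proteins, were searched on both strands of the 250 bases before each RefSeq gene start (GRCh38.p14). The pattern shares its first letters with AP-1 and CRE sites. It was present in 6 of 21 NRF2 targets with a promoter sequence (28.6%) and in 12.2% of the 10380 tested genes with one. The promoters of TXNRD1 (chr12:104215529-104215778, plus strand) and PGD (chr1:10398814-10399063, plus strand) are shown because both genes rose and carry the pattern, which is in capitals and lies 99 to 91 and 201 to 193 bases before the start.
TXNRD1: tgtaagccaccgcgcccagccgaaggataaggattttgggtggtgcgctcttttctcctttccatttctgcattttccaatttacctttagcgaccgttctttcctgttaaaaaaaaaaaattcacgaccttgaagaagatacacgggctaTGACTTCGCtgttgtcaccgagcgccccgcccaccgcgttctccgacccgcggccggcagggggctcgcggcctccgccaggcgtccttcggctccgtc
PGD: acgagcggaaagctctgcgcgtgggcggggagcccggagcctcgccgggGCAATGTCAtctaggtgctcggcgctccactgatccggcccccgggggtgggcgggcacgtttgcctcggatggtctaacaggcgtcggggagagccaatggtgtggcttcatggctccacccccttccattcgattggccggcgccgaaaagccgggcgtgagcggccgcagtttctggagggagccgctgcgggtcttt
In PGD the letters read on the opposite strand. A match is only a match of letters, and among genes risen by at least 2-fold 24 of 200 held it, a share near that of all tested genes.

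Stress genes downstream of ATF4 rose as well, 18 of 26 tested against 29.2% of all genes, with 2 falls and a median of 0.41. GDF15 (chr19:18374731-18389176), a stress-secreted cytokine of the TGF-beta family, measured 20.6–54.9 (median 32.5) with EGCG and 157–210.4 (median 182) with the combination. ATF3 (chr1:212565334-212620777), a stress-induced bZIP factor, went from 112–131 (median 119.7) to 344–440.1 (median 398). The libraries were separate for both, with log2 fold changes of 2.45 ± 0.12 (adjusted p = 5.82e-21) and 1.70 ± 0.062 (adjusted p = 1.96e-25). NUPR1, a small chromatin-associated stress protein, rose from near 10.9 to 63 normalized counts in the medians, a log2 fold change of 2.33 ± 0.15. It was low with EGCG and may have passed the filter only through libraries with resveratrol. CHAC1, which breaks down glutathione, rose by 1.17, DDIT3, which encodes CHOP, by 0.99, and TRIB3, a pseudokinase, by 0.84. The mitochondrial enzymes PCK2 and ALDH1L2 rose by 1.10 and 1.01.

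The amino acid arm of the list moved less. The serine synthesis genes PHGDH, PSAT1 and PSPH rose by 0.28, 0.31 and 0.21, MTHFD2 by 0.47, and the transsulfuration enzymes CTH and CBS by 0.83 and 0.55. ASNS, asparagine synthetase, was low in these cells (median 21.2 with EGCG) and was not called at 0.25. ATF4 mRNA was not called at 0.05 ± 0.027. The 2 falls were SLC7A5 (-0.42) and SLC3A2 (-0.27), the subunits of the amino acid exchanger LAT1. SLC7A8, the related exchanger LAT2 and not a member of the list, rose from 1450.2–1573 (median 1505) to 2908–3277 (median 3081), by 1.03, one of the 10 smallest p-values of the comparison. Aminoacyl-tRNA synthetases, another set that ATF4 can drive, split into 5 rises and 7 falls among 20 genes. The shares over all genes were 29.2% and 29.6%, and the median of the list was 0.00. WARS1 (0.53) and AARS1 (0.46) rose most and VARS1 (-0.51) fell most. With library size alone the synthetases counted 12 rises and 6 falls.

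The composite element that ATF4 binds with C/EBP proteins was searched as TGATGNAA on both strands of the same windows. It was present in 3 of 22 ATF4 targets (13.6%) and in 1.41% of the 10380 tested genes, with 1.56% among upregulated and 1.27% among downregulated DEGs. The share of the list depends on which genes were listed and not on how they changed. CHAC1 (chr15:40953221-40953470, plus strand) and ATF3 (chr1:212565157-212565406, plus strand) are shown as members that rose and carry it, with the matching letters in capitals.
CHAC1: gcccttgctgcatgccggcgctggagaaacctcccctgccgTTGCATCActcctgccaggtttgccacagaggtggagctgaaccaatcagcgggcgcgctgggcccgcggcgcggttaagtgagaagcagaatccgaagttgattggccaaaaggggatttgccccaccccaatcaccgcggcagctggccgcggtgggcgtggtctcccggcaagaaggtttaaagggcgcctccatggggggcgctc
ATF3: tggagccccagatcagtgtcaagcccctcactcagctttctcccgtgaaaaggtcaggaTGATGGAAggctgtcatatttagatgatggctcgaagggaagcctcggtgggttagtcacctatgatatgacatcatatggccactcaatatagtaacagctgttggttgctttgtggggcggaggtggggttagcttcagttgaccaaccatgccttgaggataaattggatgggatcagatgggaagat
The match lies 209 to 202 bases before the start in CHAC1, on the opposite strand, and 191 to 184 bases before it in ATF3. The RefSeq start of ATF3 lies inside the GENCODE span given above, so the end of this window overlaps that span.

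Chaperones of the endoplasmic reticulum and of the cytosol moved differently. In the endoplasmic reticulum 11 of 20 tested genes rose and 5 fell, against 29.2% and 29.6% of all genes, with a median of 0.10, and with library size alone 14 rose and 1 fell. The rises were led by DNAJB9 (0.93), ERN1 (0.61), which encodes the sensor IRE1, EDEM1 (0.54) and HERPUD1 (0.53), the last pair being parts of ER-associated degradation. HSPA5, the ER chaperone BiP, rose by 0.25, whereas HSP90B1 fell by 0.24 and CALR (0.00) and PDIA4 (-0.00) were not called. Cytosolic and mitochondrial heat shock chaperones mostly fell, 10 of 16, with 4 rises and a median of -0.24. HSPA8, the constitutive cytosolic HSP70, fell from 15814–17072 (median 16028) to 9981–11173 (median 10469), by 0.63. HSP90AB1 fell from 19423–21675 (median 20052) to 12669.5–13572 (median 13198), by 0.62. Both sets of libraries were separate, as were those of the mitochondrial chaperonins HSPE1 (-0.58) and HSPD1 (-0.48). HSPA1A and HSPA1B, nearly identical copies, gave a summed log2 ratio of -0.20. DNAJB4 (0.87) and CRYAB (0.72) rose.

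Metallothioneins, which bind zinc and copper, gave 1 rise and 3 falls among 7 tested members, against 29.2% and 29.6% of all genes. MT1E fell by 0.45 and MT2A by 0.24. The rise was of MTF1, the metal-sensing factor, at 0.15.

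Cholesterol synthesis and uptake rose almost to a gene, 23 of 24 tested members with no fall, against 29.2% of all genes, and a median of 0.42. TM7SF2, a sterol reductase, rose from 81.9–108 (median 92.9) to 178–233 (median 213) normalized counts, by 1.16, and MVD of the mevalonate steps from 417–499.9 (median 475) to 798–981 (median 824), by 0.86. In both genes the combination libraries were all above the EGCG libraries. HMGCS1 rose by 0.55, FDFT1 by 0.58, and SREBF2, the master factor of the pathway, by 0.39. PMVK at 0.00 was the member not called.

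Acetate and fatty acid genes were more selective, with 6 rises and 2 falls among 11, against 29.2% and 29.6% of all genes. With library size alone there were 9 rises and 1 fall. ACSS2 (chr20:34872146-34927962), which turns acetate into acetyl-CoA, went from 356–416 (median 396) to 1011–1157 (median 1065), a log2 fold change of 1.47 ± 0.043 (adjusted p = 1.92e-28) and one of the 10 smallest p-values. The desaturases FADS2, FADS1 and SCD rose by 1.04, 0.69 and 0.55. FASN, the fatty acid synthase, rose by 0.33 and ACLY by 0.27. ACACA (0.03) and SREBF1 (0.04) were not called, and ELOVL6 and MID1IP1 fell by 0.22 and 0.17.

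Lysosomal and autophagy genes rose in 22 of 27 tested cases, against 29.2% of all genes, with no fall and a median of 0.22. The largest change was LAMP3, a lysosomal membrane protein that stress and interferon can induce, from 56.2–87.4 (median 76.1) to 309.8–356 (median 337). GABARAPL1 (chr12:10212458-10223128), which coats forming autophagosomes, went from 636–732 (median 698) to 1663–1740.5 (median 1713). SQSTM1 (chr5:179806398-179838078), the p62 cargo receptor, went from 1824–2024 (median 1959) to 3852–4245 (median 4084). The groups were separate for all 3 genes, with log2 fold changes of 2.15, 1.31 (adjusted p = 6.05e-31) and 1.07 (adjusted p = 1.52e-29). WIPI1, a lipid-binding protein of early autophagosomes, went from 29.3–42.9 (median 39.8) to 83.4–131 (median 109), and MAP1LC3B, which encodes LC3B, rose by 0.72. Hydrolases rose less, with NEU1 at 0.89, CTSB at 0.55 and GAA at 0.53. TFEB, a master factor of lysosomal genes, rose by 0.60, and LAMP1 (0.02) and UVRAG (-0.06) were among those not called.

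Cell cycle genes divided by phase. The CDK inhibitor CDKN1A (chr6:36676460-36687337) measured 672–778 (median 730.2) with EGCG and 1634–1915 (median 1771) with the combination. No library of one group reached the other, and the log2 fold change was 1.29 ± 0.034 (adjusted p = 2.93e-30). Across p53 targets 13 of 23 tested genes rose and 2 fell, against 29.2% and 29.6% of all genes, with a median of 0.20. BBC3, which encodes the BH3-only protein PUMA, rose by 0.86, BTG2 by 0.76, TP53I3 by 0.73 and GADD45A by 0.54. MDM2, the feedback ligase, was not called at -0.04, and BAX and AEN fell by 0.16 and 0.35. In the BCL2 family 7 of 15 rose and 3 fell, or 9 and 1 with library size alone. The rises included the BH3-only genes PMAIP1 (0.76) and BCL2L11 (0.42), whereas MCL1 (0.00) and BCL2L1 (-0.00), which block apoptosis, were not called.

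Mitotic genes fell almost without exception, 33 of 35 tested, with no rise, against 29.6% of all genes, and a median of -0.40. PLK1 (chr16:23677656-23690367), a kinase of mitotic entry and exit, measured 1871–2007 (median 1909) with EGCG and 818–953 (median 865) with the combination. CDC20, the activator of the anaphase-promoting complex, went from 2603–2972 (median 2779) to 1364–1533 (median 1437), and the kinase AURKA from 2091–2187 (median 2133) to 1056–1189.5 (median 1130.1). All 6 combination libraries lay below all 6 EGCG libraries for these 3 genes, and the log2 fold changes were -1.14 ± 0.037, -0.93 ± 0.034 and -0.92 ± 0.031. KIF20A, a kinesin of cytokinesis, fell by 1.01, cyclin B1 (CCNB1) by 0.77 and CENPE by 0.69. MKI67, the proliferation marker, fell by 0.40. CDK1 (-0.05) and FOXM1 (-0.05) were the members not called. In a bulk sample, fewer cells in mitosis and less of these transcripts per cell cannot be told apart.

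Genes of earlier phases did not fall together, and their counts are set against 29.2% upregulated and 29.6% downregulated among all genes. At entry into S phase 7 of 21 tested genes rose and 5 fell (9 and 3 with library size alone), with a median of 0.00, and CCND1, which encodes cyclin D1, was not called at -0.05. DNA replication genes gave 12 rises and 17 falls among 33, with a median of -0.10, and 13 of each with library size alone. Homologous recombination genes gave 8 rises and 1 fall among 16 (10 and 0 with library size alone), with EXO1 up by 0.30 and XRCC2 down by 0.19.

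The cell cycle homology region, TTTGAA, bound by the DREAM and MuvB complexes at mitotic genes, was searched on both strands of the same 250 bases. It was present in 15 of 29 mitotic genes with a promoter sequence (51.7%) and in 8.29% of the 10380 tested genes. The share of the list depends on which genes were listed and not on how they changed. Among all downregulated DEGs the share was 9.85% and among upregulated DEGs 6.54%. At 2-fold it was above that of all tested genes in both directions, at 14.3% of falls (7 of 49) and 10.5% of rises (21 of 200). PLK1 (chr16:23678639-23678888, plus strand) and CDC20 (chr1:43358731-43358980, plus strand) are printed as members that fell and carry it, with the letters in capitals.
PLK1: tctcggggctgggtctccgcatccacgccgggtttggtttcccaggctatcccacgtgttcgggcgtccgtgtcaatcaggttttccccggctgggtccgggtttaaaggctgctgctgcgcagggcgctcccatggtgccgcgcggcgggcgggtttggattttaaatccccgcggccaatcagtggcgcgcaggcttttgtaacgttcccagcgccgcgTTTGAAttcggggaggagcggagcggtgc
CDC20: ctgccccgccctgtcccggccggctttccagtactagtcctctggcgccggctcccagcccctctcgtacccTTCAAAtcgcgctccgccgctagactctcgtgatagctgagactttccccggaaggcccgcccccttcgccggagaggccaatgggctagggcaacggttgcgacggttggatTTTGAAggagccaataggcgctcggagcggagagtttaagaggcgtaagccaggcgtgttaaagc
PLK1 has 1 match, 29 to 24 bases before the start, and CDC20 has 2, at 178 to 173 bases on the opposite strand and at 65 to 60 bases. The PLK1 window lies inside the GENCODE span given above, because the RefSeq start is farther downstream.

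**Figure D2:**
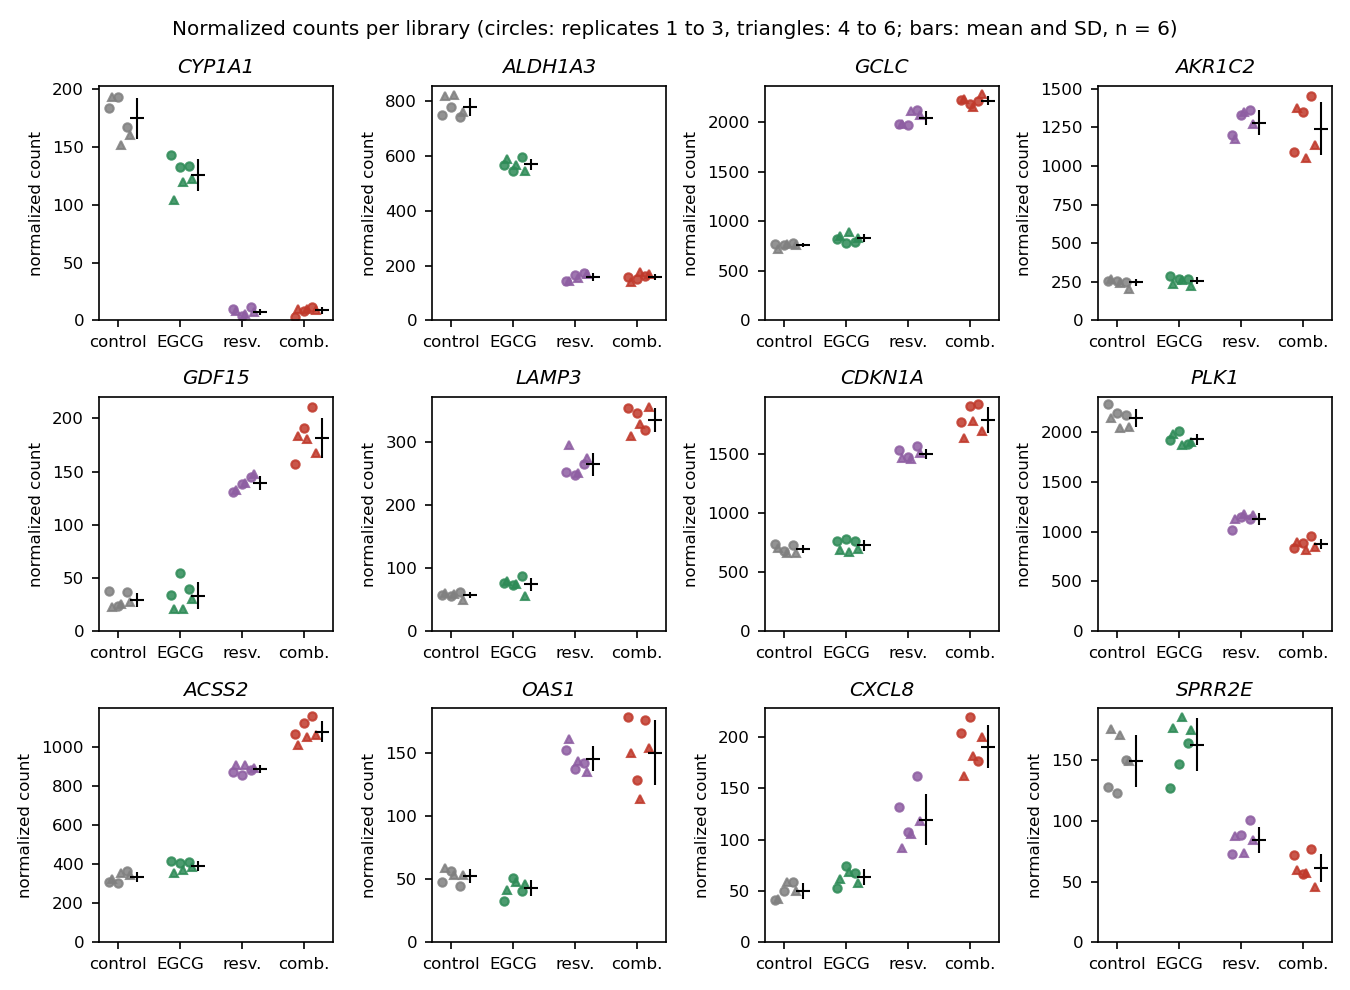
Normalized counts of 12 genes in each of the 24 libraries, by group (resv., resveratrol; comb., combination), with circles for replicates 1 to 3, triangles for replicates 4 to 6 and a bar for the mean and SD (n = 6). The combination libraries lie apart from the EGCG libraries for each gene, below them for CYP1A1, ALDH1A3, PLK1 and SPRR2E and above them for the other 8.

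Interferon-stimulated genes rose in 31 of 32 tested cases, against 29.2% of all genes, with no fall and a median of 0.81, the highest median of the 30 pathway lists. OAS1 (chr12:112905856-112933219), which senses double-stranded RNA, went from 32.8–50.6 (median 43.8) to 113–178 (median 152) normalized counts. MX1, an antiviral GTPase, went from 49.5–75.8 (median 57.5) to 138–216 (median 168), and IRF7 (chr11:612553-615983), the amplifying transcription factor, from 39.1–64.6 (median 55.8) to 147–207 (median 165). The combination libraries were above every EGCG library for these genes, with log2 fold changes of 1.80 ± 0.11, 1.56 ± 0.11 and 1.62 ± 0.10. IFIT2 and IFIT3 rose by 1.25 and 0.97, and STAT2 by 0.78. MX2, IFI44L and RSAD2 had the largest folds (2.40, 2.17 and 2.24), but from medians of only 3.81, 5.06 and 3.52 normalized counts. Genes this low with EGCG may have passed the filter only through libraries with resveratrol, so their rise counts for little. With at least 10 counts required in every library, 27 of 28 members rose and the median was 0.78. IFI44 was not called at 0.08. Of the 36 listed genes 4 were not tested for low counts. HLA class I presentation moved in the same direction by smaller amounts, 11 of 15 up with no fall and a median of 0.27, led by ERAP2 at 0.67 and PSMB9 at 0.46. The counts of HLA genes depend on how reads from their alleles were mapped.

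The interferon response element was searched on both strands as a pair of GAAA with any 2 bases between. It was present in 13 of 26 interferon-stimulated genes with a promoter sequence (50%), in 2.22% of the 10380 tested genes and in 2.46% of upregulated DEGs. The share of the list depends on which genes were listed and not on how they changed, so it says nothing about resveratrol. OAS3 (chr12:112938224-112938473, plus strand), which rose by 0.71, and PARP14 (chr3:122680589-122680838, plus strand), which rose by 0.89, are shown with the letters in capitals.
OAS3: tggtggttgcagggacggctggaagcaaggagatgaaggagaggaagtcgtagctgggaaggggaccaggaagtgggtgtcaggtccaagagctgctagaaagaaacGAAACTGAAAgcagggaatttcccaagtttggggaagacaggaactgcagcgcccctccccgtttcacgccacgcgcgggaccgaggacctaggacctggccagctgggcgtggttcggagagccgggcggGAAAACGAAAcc
PARP14: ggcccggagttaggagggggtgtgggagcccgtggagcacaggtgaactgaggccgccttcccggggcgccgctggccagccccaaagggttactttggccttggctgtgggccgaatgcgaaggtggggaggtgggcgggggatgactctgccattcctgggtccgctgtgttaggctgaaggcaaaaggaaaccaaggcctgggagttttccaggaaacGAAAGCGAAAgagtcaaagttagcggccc
The 2 matches of OAS3 lie 143 to 134 and 12 to 3 bases before the start and the match of PARP14 lies 29 to 20 bases before it.

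NF-kappaB targets and cytokines gave 16 rises and 4 falls among 22 tested genes, against 29.2% and 29.6% of all genes, with a median of 0.68. CXCL8, which encodes the neutrophil chemokine IL-8, rose from 53–74.3 (median 64.8) to 162–219 (median 191), by 1.57 ± 0.10 (adjusted p = 8.11e-17). TRAF1 and BIRC3, survival genes of the pathway, rose by 1.44 and 1.12, CXCL1 by 0.74 and NFKB2 by 0.70. The interleukin-1 genes went the other way. IL1B fell from 342–424 (median 378) to 164–196 (median 191), by 1.05, and IL1A from 2093–2529 (median 2272) to 1257–1539.7 (median 1405), by 0.71. IL24 fell by 1.47, and NFKB1 by 0.07. All libraries of IL1A and IL1B were lower in the combination.

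Late squamous differentiation genes fell, 17 of 24 tested members of the cornified envelope list against 29.6% of all genes, with 2 rises and a median of -0.88, the lowest of the pathway lists. SPRR2E, a small proline-rich envelope protein, went from 127–186 (median 169) to 45.9–77.1 (median 58.1), and SPRR1B from 1662–1911 (median 1799) to 888–1069 (median 977). SBSN, which encodes suprabasin, went from 120.3–191 (median 146) to 61.7–73.8 (median 64.9). The groups did not overlap for these 3 genes, whose log2 fold changes were -1.39 ± 0.11, -0.86 ± 0.058 and -1.20 ± 0.097. IVL, which encodes involucrin, fell by 0.62 and SPRR4 by 2.18. SPRR4 was not among the falls named by rule, so its mean was under 50 normalized counts or its libraries overlapped. Transglutaminase 1 (TGM1) and periplakin (PPL), the cross-linking enzyme and a scaffold, rose by 0.29 and 0.32. The list median was -0.56 within replicates 1 to 3 and -0.98 within replicates 4 to 6. SPRR genes are close copies of each other, so reads may be divided between them.

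Keratins gave 6 rises and 11 falls among 20, against 29.2% and 29.6% of all genes, with a median of -0.22. The basal pair KRT5 and KRT14 fell by 0.34 and 0.29, and KRT6A and KRT17 by 0.31 and 0.32. The early differentiation keratins KRT1 and KRT10 fell by 0.47 and 0.27. KRT80 was the largest rise, from 1393–1556 (median 1485) to 2518–2653 (median 2551), by 0.80. The adhesion genes CDH1 and DSG3 rose by 0.32 and 0.40, and TP63, the lineage factor of squamous cells, by 0.09.

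Matrix and integrin genes moved in both directions, 12 up and 13 down of 31, against 29.2% and 29.6% of all genes. Their median of -0.01 turned to 0.06, with 16 rises and 9 falls, under library size alone. COL1A1, the alpha chain of type I collagen and also a fibroblast marker, rose from 875–1092 (median 974) to 1499–1718 (median 1692), by 0.76 ± 0.049. MMP13, collagenase 3, went from 291–325 (median 301) to 483–603 (median 547), by 0.85 ± 0.053. COL5A1 rose by 0.71, TIMP2 by 0.86 and ITGAV by 0.51. THBS1, which encodes thrombospondin 1, fell by 0.68. Whether rare cells of another type took part in the COL1A1 rise was not tested.

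Among EGF receptor ligands and ERK feedback genes 11 of 21 rose and 5 fell, against 29.2% and 29.6% of all genes. The median was 0.14. The ligand gene HBEGF rose from 179.7–257 (median 205) to 373–503 (median 465), by 1.10, while AREG fell by 0.18 and EGFR by 0.09. The feedback phosphatases diverged, with DUSP5 up by 0.40, DUSP4 down by 0.37 and DUSP6 not called at -0.06. In the AP-1 family 8 of 10 rose and 1 fell. JUND rose from 318–367 (median 339) to 641–733 (median 670.1), by 1.01. FOSL1, which encodes the FOS-related protein FRA1, was the fall, from 2937–3535 (median 3375) to 2007–2206 (median 2137), a log2 fold change of -0.63 ± 0.031. The small MAF gene MAFG, a partner of NRF2, rose by 0.53.

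Ribosome biogenesis genes fell, 19 of 23 tested against 29.6% of all genes, with no rise and a median of -0.33. NPM1, which encodes nucleophosmin, fell from 10646–11485 (median 10915) to 5832–6812 (median 6668), by -0.75 ± 0.030 (adjusted p = 8.34e-24). UTP20 fell by 0.66, FBL, the rRNA methyltransferase fibrillarin, by 0.60 and NOP56 by 0.55. MYC mRNA, which encodes a main driver of this program, was not called at -0.02 ± 0.028.

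Some lists split evenly or moved little, where 29.2% of all genes rose and 29.6% fell. Hypoxia-inducible genes gave 9 rises and 9 falls among 20, with LDHA (-0.56), PGK1 (-0.43) and SLC2A1 (-0.26) falling and ALDOC (0.66), ENO2 (0.43) and VEGFA (0.33) rising. With library size alone the split was 11 and 8. Sirtuins and NAD genes, of interest because resveratrol is discussed as a sirtuin activator, gave 6 rises and 3 falls among 14 (7 and 1 with library size alone), with a median of 0.13. SIRT1 rose by 0.19 ± 0.058, from 259–299.5 (median 279) to 272–379 (median 318), with overlapping libraries. Selenoproteins, whose redox members use selenium as TXNRD1 does, gave 7 rises and 4 falls among 16, led by SELENOM (0.58) and SEPHS2 (0.53).

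**Figure D3:**
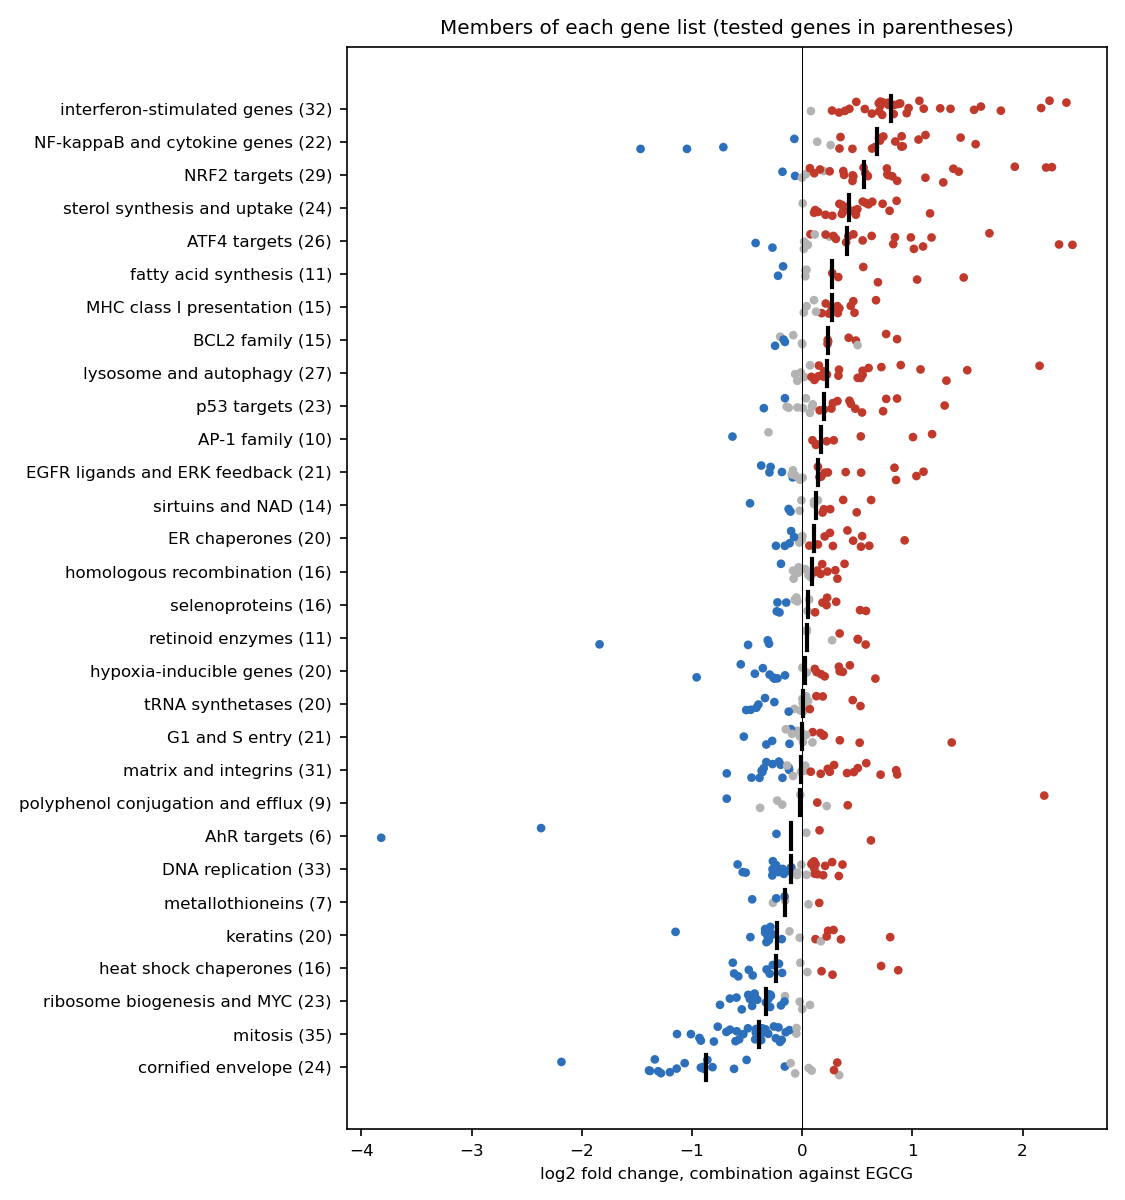
Log2 fold change of combination against EGCG (horizontal axis) for each tested member of the 30 pathway lists, ordered by median (black bar), with upregulated DEGs in red, downregulated DEGs in blue and genes not called in grey. Interferon-stimulated genes (median 0.81) stand at the top and the cornified envelope (median -0.88) at the bottom, and sterol and mitosis members lie almost wholly on one side of 0.

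Whether EGCG changed what resveratrol did was asked with the interaction, the change beside EGCG minus the change of resveratrol against control. The pair of changes share no library, and their log2 fold changes had a Pearson correlation of 0.869 across the 15476 genes, a description since genes are not independent replicates. Of the 9102 DEGs 8853 (97.3%) had the same direction without EGCG, as did 359 of the 362 at 2-fold. The interaction itself was called for 79 genes (0.510%), 57 above and 22 below the change without EGCG. At an unadjusted p under 0.05 there were 1324, where chance would give 773.8. The number depended on the fit, with 41 calls without the replicate set term, 6 in replicates 1 to 3 and 24 in replicates 4 to 6. Without EGCG replicate 4 it was 52 and without resveratrol replicate 2 it was 51. Of the 79 genes 69 were DEGs beside EGCG, 51 had the larger absolute change beside EGCG and 28 the smaller, and for 20 the directions were opposite.

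For most of the genes described above the interaction was not called. GCLC differed by -0.00 ± 0.045 on the log2 scale between the settings, AKR1C2 by -0.12 ± 0.099 and TXNRD1 by 0.04 ± 0.034. CYP1A1 had log2 fold changes of -3.82 beside EGCG and -4.52 without it, a difference of 0.70 ± 0.29 that was not called (adjusted p = 0.482). ALDH1A3 did differ, by 0.45 ± 0.078 (adjusted p = 0.00102). Its means were 780.1 ± 34.4 in control, 158 ± 13.3 in resveratrol, 569.8 ± 21.2 in EGCG and 159 ± 12.2 in combination libraries. The means of the resveratrol and combination libraries differed by less than their SD, while those of control and EGCG libraries were far apart.

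Among the genes with the smallest p above the change without EGCG were CYP24A1, COL1A1, IER3, MMP13 and HAS3. IER3, an early-response gene, fell less beside EGCG, the difference being 0.35 ± 0.053. COL1A1 measured 1182 ± 92.5 in control, 1445 ± 90.8 in resveratrol, 981 ± 85.9 in EGCG and 1649.6 ± 88.3 in combination libraries and MMP13 measured 338 ± 26.7 in control, 431 ± 21.8 in resveratrol, 304 ± 11.2 in EGCG and 548 ± 44.9 in combination libraries, and both rose more beside EGCG, by 0.46 ± 0.068 and 0.50 ± 0.076. CYP24A1, which inactivates vitamin D, rose by 0.43 beside EGCG against -0.15 without it (difference 0.58 ± 0.082, adjusted p = 0.000104). HAS3, a hyaluronan synthase, was not called beside EGCG at -0.01 and was -0.28 without it (difference 0.27 ± 0.045, adjusted p = 0.000612). In the matrix and integrin list 8 of 31 genes had a called interaction, against 0.510% of all genes, each of them above.

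The 6 below were PIF1, AURKA, SPRR1B, TOP2A, KIF20A and CENPA. AURKA measured 2298 ± 41.6 in control, 1442 ± 55.1 in resveratrol, 2136 ± 40.1 in EGCG and 1129 ± 51.5 in combination libraries, a log2 fold change of -0.92 beside EGCG and -0.67 without it (difference -0.25 ± 0.043, adjusted p = 0.000937). KIF20A, TOP2A, which encodes topoisomerase II alpha, and CENPA, the centromeric histone, also fell further, the differences being -0.28 ± 0.054, -0.24 ± 0.043 and -0.37 ± 0.079. PIF1 measured 129 ± 9.82 in control, 75 ± 9.46 in resveratrol, 120.3 ± 12.8 in EGCG and 43.2 ± 5.82 in combination libraries (difference -0.69 ± 0.13, adjusted p = 0.00364). SPRR1B of the cornified envelope had log2 fold changes of -0.86 beside EGCG and -0.39 without it (difference -0.47 ± 0.081, adjusted p = 0.000986). Of the mitotic list 5 of 35 genes had a called interaction and of the cornified envelope list 3 of 24, all below, where 0.142% of all genes were called below. The NF-kappaB list had 3 of 22, and there IL1A and IL1B fell less beside EGCG (-0.71 against -1.02 and -1.05 against -1.50), while TNFAIP3, a feedback inhibitor, rose by 0.34 against 0.00.

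**Figure D4:**
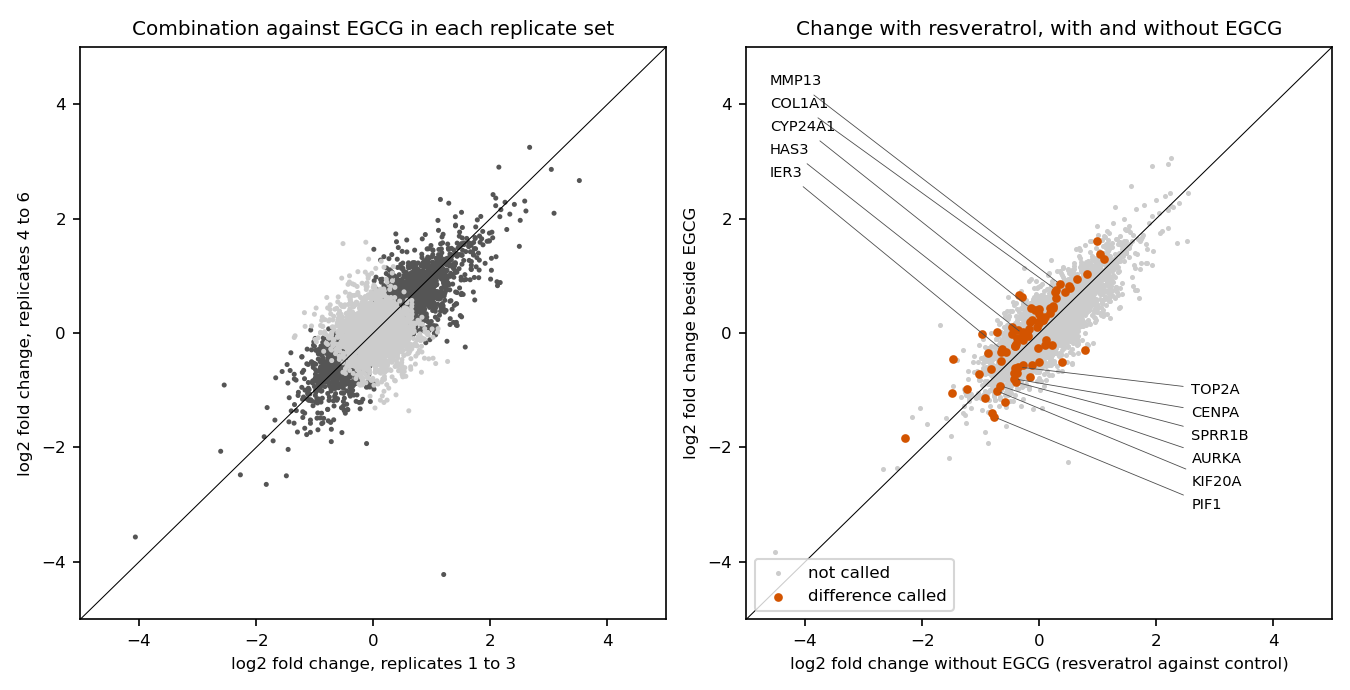
Left, log2 fold change of combination against EGCG in replicates 1 to 3 (horizontal) and in replicates 4 to 6 (vertical), with DEGs in dark grey and other genes in light grey. Right, log2 fold change of resveratrol against control (horizontal) and of combination against EGCG (vertical), with the 79 genes of called interaction in orange and the 11 named ones labelled, and in both panels points follow the diagonal line of equal change (Pearson 0.799 and 0.869).

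The replicate sets were also compared with each other. The log2 fold changes within replicates 1 to 3 and within replicates 4 to 6 had a Pearson correlation of 0.799 over all tested genes, and 83.5% of genes had the same direction. No gene passed the threshold for a difference between the sets in edgeR (0 of 15476) or in DESeq2 (0). In edgeR 670 genes had an unadjusted p under 0.05, where chance would give 773.8. For GDF15 the log2 fold changes of the sets were 2.15 and 2.90 and for SPRR2E -1.07 and -1.74, for GCLC 1.47 and 1.37, and for PLK1 -1.11 and -1.16.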

How the data were processed

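Messenger RNA was sequenced as paired 50-base reads from 24 stranded libraries. Every library has a column in each of the deposited tables, one of raw counts, another of normalized counts and the last of FPKM. Per the methods and the submitters' processing notes, the authors trimmed reads with Trimmomatic 0.36, aligned them with HISAT2 2.0.4 and used DESeq2 1.20.0. The counting program, its strand setting and the annotation release are not given in the sources used here, so genes that overlap or are near-identical copies (AKR1C, SPRR2, KRT6, HSPA1, metallothionein, HLA and alkaline phosphatase genes) are uncertain. The deposited normalized counts (signal) are raw counts over a scaling factor that is the same for all genes of a library, and levels are printed on that scale. The deposited FPKM values, which also divide by gene length, were used only for the identity markers.

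The raw counts deposited by the authors were tested with edgeR 4.0.16 (R 4.3.3). The quasi-likelihood fit used trimmed-mean (TMM) scaling, edgeR's expression filter, all 24 libraries, and terms for group and replicate set (1 to 3 or 4 to 6). A DEG had a Benjamini-Hochberg adjusted p under 0.1 over all tested genes and a p under 0.05, the interaction and replicate set difference included, and all adjusted p-values are from this test unless DESeq2 is named. The scripts were tested on simulated data. Sample groups came from the labels. At 7034872 to 11735574 counts in the 12 libraries, rare transcripts are measured poorly.

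Named genes were the 15 largest rises and 15 largest falls among DEGs with separate libraries and a mean of at least 50 normalized counts, the 10 DEGs with the smallest p, members of the gene lists, the 6 interaction DEGs with the smallest p in each direction, and the genes the study measured by RT-qPCR. Some of these genes are not reported here. The comparison, members and lists were chosen with earlier results of these data known. Promoters came from RefSeq (GRCh38.p14), matched by symbol for 10380 of 14689 tested genes with a symbol. Alternatives were DESeq2 1.42.0, other scalings, filters and thresholds, only the 12 libraries, each replicate set alone, no replicate set term, the replicate number as a block, and leaving out each library.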

Additional observations from a re-analysis of the deposited data

Results flagged for a closer look

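Within groups of 6 libraries, 84 groups of values were checked with Dixon's ratio for a library far from its neighbours. They covered library totals, mitochondrial shares and the genes named for their rank, smallest p or RT-qPCR. Of the 84 groups 5 stood out, where chance gives about 1 in 20. DHRS2 measured 213 normalized counts in EGCG replicate 1 and 86.8 in combination replicate 1, each far from the other 5 libraries of its group. STAG1 measured 575 in EGCG replicate 5. CYP1A1 measured 3.38 in combination replicate 1, and ALPP measured 117 in combination replicate 3. All of these genes had separate groups with these libraries included, which the rule for naming them required.

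The change with resveratrol differed with and without EGCG by the interaction test of edgeR for 11 named genes, given as the log2 change beside EGCG minus the log2 change without it. It was above 0 for CYP24A1 (0.58), COL1A1 (0.46), IER3 (0.35), MMP13 (0.50) and HAS3 (0.27). It was below 0 for PIF1 (-0.69), AURKA (-0.25), SPRR1B (-0.47), TOP2A (-0.24), KIF20A (-0.28) and CENPA (-0.37).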

How the results depend on the processing

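DEGs numbered 8382 to 9219 under the other tests, scalings, filters, thresholds and sample choices that used both replicate sets, and 8780 to 8946 with 1 library left out. Library size alone moved the upregulated share from 49.6% to 63.8%. DEGs at 1.5-fold numbered 1551, and 1531 to 1630 with 1 library left out. DEGs at 2-fold numbered 362, and 357 to 406 with 1 library left out, 910 with every gene of at least 1 count tested and 189 with at least 10 counts in every library, where fewer low genes were tested. At least 1 count also gave 2183 DEGs at 1.5-fold, and at least 10 counts gave 1037. Interaction DEGs numbered 79, and 41 without the replicate set term, 6 in replicates 1 to 3, 24 in replicates 4 to 6, 51 at an adjusted p under 0.05 and 51 to 108 with 1 library left out. The cause of these shifts was not tested, and a single replicate set also holds fewer samples. The difference between replicate sets was called for 0 genes, 20 with every gene of at least 1 count tested, 0 to 7 with 1 library left out, 7 without combination replicate 1 and 2 without combination replicate 2. The genes named for their rank, smallest p or RT-qPCR kept their direction and call in all 879 recomputed values. For the named interactions 385 values did, and another 11 lost the call within a single replicate set. Apart from genes named only for RT-qPCR, all were picked from these same libraries by size or p. Their stability was therefore largely set by the choice. Members named only from the lists were recomputed as counts of their list, and there the falls of NRF2 targets went from 2 to 1 with DESeq2 and with library size alone. List medians that changed sign under some setting were those of hypoxia-inducible genes (-0.08 in replicates 4 to 6) and retinoid enzymes (-0.02 there). Those of polyphenol conjugation, G1 and S entry, matrix genes, tRNA synthetases and squamous markers also did. The AhR median did too (0.06 with at least 10 counts), on a list that holds AHR and ARNT beside their targets. The replicate numbers did not pair the libraries: same-numbered EGCG and combination libraries had correlations of 0.02 to 0.10 between their deviations from the group means, and 2 of 6 numbers matched best both ways. The replicate number as a block gave 9136 DEGs and 85 interaction DEGs. At this depth genes with a few counts a library could be tested only with the looser filter.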

Other observations

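Genes of the cytosolic ribosome and their pseudogenes, a group chosen after its values were seen, mostly fell, and mostly by small amounts. Of 82 tested genes for cytosolic ribosomal proteins none rose and 77 fell, against 29.6% of all genes, the median being -0.22 on the log2 scale, and together they held 4.63% of counts in EGCG libraries and 4.17% in combination libraries. RPL3, of the large subunit, measured 8494 to 9313 normalized counts (median 8874) with EGCG and 6811 to 7279.5 (median 7074) with the combination, without overlap, and RPL22L1, a paralog of RPL22, had the lowest log2 fold change at -0.73. With library size alone 2 rose and 72 fell, and the falls numbered 74 in replicates 1 to 3 and 77 in replicates 4 to 6.

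Processed pseudogenes, copies of mRNAs in the genome, made up 769 of the 4584 downregulated DEGs and 70 of the 4518 upregulated ones. Of 1727 tested, 44.5% fell and 4.05% rose, against 29.6% and 29.2% of all genes. All 25 tested pseudogenes named after NPM1 fell (median -0.82) and all 14 named after FTH1 or FTL rose (median 0.55), as did NPM1 (-0.75), FTH1 (0.37) and FTL (0.57) in the same directions. Of 678 called pseudogenes whose parent gene by name was also called, 676 had its direction. Reads of a parent gene and of its copies may not be told apart in these counts. Protein-coding genes alone gave 4090 rises and 3516 falls among 12116.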
